A study of Mus musculus with 9 samples.

Results

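The protein-folding machinery of the endoplasmic reticulum (ER) was followed through 10 genes: *Hspa5*, *Hsp90b1*, *Calr*, *Dnajb9*, *Sdf2l1*, *Manf*, *Pdia4*, *Pdia6*, *Herpud1* and *Xbp1*. They were chosen by gene name as ER chaperones and unfolded protein response genes, and each name matched a single row among the 55487 genes of the expression table. All 10 reached at least 1 TPM, the length-corrected unit of the table, in at least 3 libraries, the filter that 15536 genes passed. TPM is the share of a library's transcripts that a gene holds, corrected for transcript length, so levels of different genes can be compared within this unit.

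RNA was sequenced from CD4+ T cells obtained by negative selection from the spleens of female wild-type (*Trail-r*+/+) C57BL/6 mice, 6 to 7 weeks old. The 9 libraries form 3 groups of 3. The first group was kept in medium alone, for a time the labels do not give. The second was stimulated for 24 h with Abs that engage the T cell receptor (anti-CD3, at 3 µg/ml) and its costimulatory receptor (anti-CD28, at 2 µg/ml). The third received the same Abs together with TRAIL (10 µg/ml), the TNF-related apoptosis-inducing ligand. The RNA came from bulk populations, in which fewer cells of a type and less RNA per cell cannot be told apart. The labels do not say whether the libraries of a group came from separate mice or cultures, so p-values measure the spread between these libraries, which may be technical. Both stimulated groups were compared with the same medium libraries, and TRAIL-treated cells were compared with both other groups, so the 3 comparisons share libraries.

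Proteins bound for the membrane or for secretion fold inside the ER. When unfolded proteins accumulate there, the sensors IRE1, PERK and ATF6 start the unfolded protein response. IRE1 splices the mRNA of XBP1 into the form that codes for an active transcription factor, ATF6 is cut to release another, and PERK slows translation and favors that of ATF4. ATF6 and XBP1 raise the transcription of chaperones, folding enzymes and degradation factors. In lymphocytes this machinery is best known for its expansion in antibody-secreting plasma cells, and T cells also enlarge their secretory pathway when they are activated.

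The promoters of these genes are known for the ER stress response element (ERSE), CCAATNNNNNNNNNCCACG, at which ATF6 acts with the factor NF-Y. RefSeq start sites on GRCm38.p6 gave a window from 250 bases before to 50 bases after the start for 9 of the 10 genes. Searched on both strands, the ERSE was found in 4 of these 9 windows (44.4%), in 39 of 32851 promoter entries of all genes (0.119%), in 6 of 101 entries of other ER genes (5.94%) and in 0 of 17 entries of cytosolic heat shock chaperones. Another form, ERSE-II (ATTGGNCCACG), was found in 12 entries of all genes (0.0365%), among them that of *Herpud1*. The matches are printed because they are the known response elements found in 5 of these 9 windows, with the fixed letters of each motif in capitals, 5 bases on either side, and the strand of the gene.
Hspa5: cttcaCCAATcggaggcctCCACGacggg
Hsp90b1 distal: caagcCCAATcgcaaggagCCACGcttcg
Hsp90b1 proximal: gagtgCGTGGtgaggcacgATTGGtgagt
Pdia6: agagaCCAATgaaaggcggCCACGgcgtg
Calr: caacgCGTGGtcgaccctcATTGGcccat
Herpud1: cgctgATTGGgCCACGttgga

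The *Hspa5* window lies at chr2:34772020-34772048 on the plus strand, with the motif 65 to 47 bases before the RefSeq start, and GENCODE M21, whose transcript begins further upstream, annotates it as 5′ UTR. The *Hsp90b1* windows lie on the minus strand at chr10:86705633-86705661, with the motif 212 to 194 bases before the start, and at chr10:86705528-86705556, with the motif read on the opposite strand 107 to 89 bases before it. In *Pdia6* the window is chr12:17266486-17266514 on the plus strand and the motif lies 98 to 80 bases before the start. In *Calr* it is chr8:84847070-84847098 on the minus strand, with the motif on the opposite strand 162 to 144 bases before the start. The *Herpud1* window is chr8:94386372-94386392 on the plus strand, with the ERSE-II 52 to 42 bases before the start and inside the span, but not the exons, of the antisense gene *Gm15890*. The other windows overlap no feature of that annotation. Neither set of letters was present in the windows of *Dnajb9*, *Sdf2l1*, *Pdia4* and *Xbp1*. The searched window of *Dnajb9* lies wholly inside its GENCODE gene, so bases before that annotated start were not searched. For *Pdia4*, *Xbp1* and *Herpud1*, the last 50 bases of the searched window were not found whole in a GENCODE transcript. Absence therefore holds only for windows placed by the RefSeq start. A further element of this response, the UPRE (TGACGTGG), was present in 0 of the 9 windows and in 0.676% of all entries. A match describes the letters only, and binding was not measured.

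Anti-CD3/CD28 stimulation was accompanied by higher *Sdf2l1*, *Xbp1*, *Manf* and *Pdia6* and lower *Dnajb9* than in medium. Cells that also received TRAIL had higher *Dnajb9* and lower *Sdf2l1*, *Xbp1*, *Manf* and *Pdia6* than cells stimulated without it, a comparison that uses the same stimulated libraries. None of the 10 genes was called changed between TRAIL-treated cells and medium. *Hspa5*, which encodes the principal ER chaperone BiP, was highest in the TRAIL-treated cells. Calls rest on limma's fit of log2(TPM + 1) over all tested genes and require both a log2 fold change of 1 or more in either direction and an adjusted p (Benjamini-Hochberg) under 0.05.

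Together the 10 genes held 2307, 2298 and 2156 TPM in medium, 3381, 3486 and 3462 TPM in stimulated cells, and 2450, 2638 and 2692 TPM with TRAIL. The groups did not overlap in this sum, with means of 2254 ± 85.1, 3443 ± 55.3 and 2593 ± 127 TPM (SD, n = 3). In medium, *Hspa5* had the highest level, followed by *Calr* and *Hsp90b1*, whose ranges overlapped, then *Pdia4* and *Pdia6*, then *Herpud1*, *Dnajb9* and *Xbp1*, whose neighbors in the order overlapped, then *Manf* and *Sdf2l1*. In stimulated cells *Calr* came first, *Hsp90b1* and *Hspa5* overlapped below it, *Xbp1* and *Pdia6* overlapped next, then *Pdia4* and *Herpud1*, which also overlapped, and *Manf*, *Sdf2l1* and *Dnajb9* closed the order without overlap. In TRAIL-treated cells *Hspa5* again stood first, above *Calr* and *Hsp90b1*, and *Dnajb9* had moved from the last to the fourth place. Below it came *Herpud1*, then *Pdia4*, *Xbp1* and *Pdia6*, whose neighbors overlapped, then *Manf* and *Sdf2l1*.

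**Figure D1:**
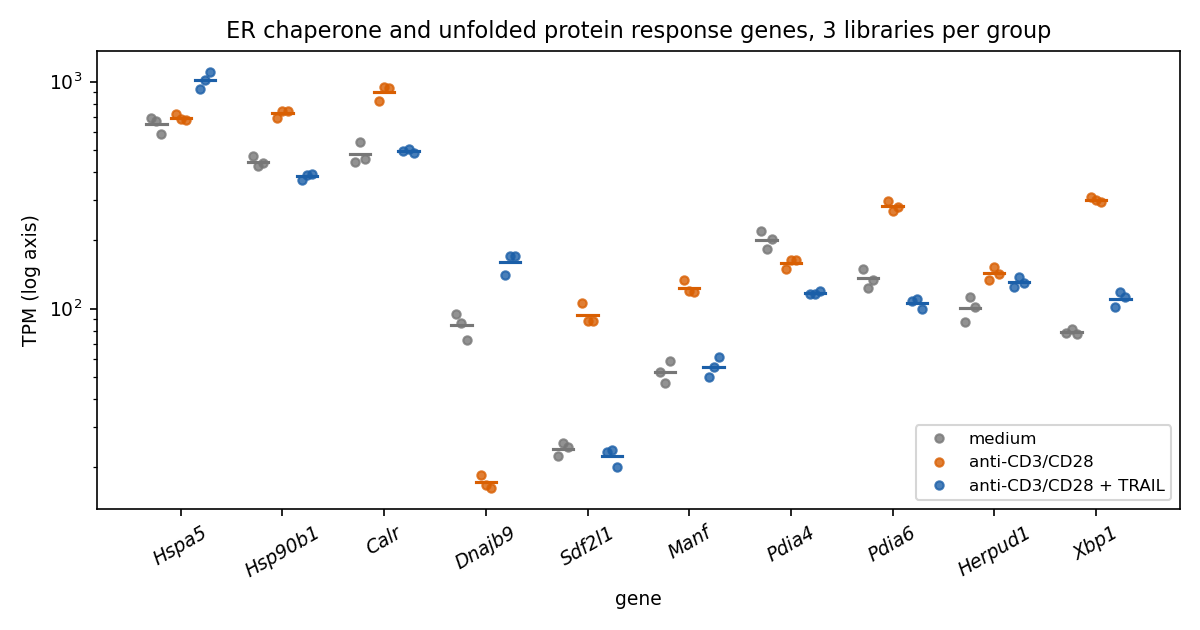
TPM (log axis) of the 10 genes in each of the 9 libraries, with points for libraries and bars for group means. *Dnajb9* lies between 16.2 and 18.5 TPM in stimulated cells and between 140 and 170 TPM with TRAIL, while *Xbp1* lies between 294 and 309 TPM and between 102 and 118 TPM.

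*Hspa5* (ENSMUSG00000026864, chr2:34771970-34777547, plus strand) encodes BiP, which binds unfolded chains in the ER lumen and holds the stress sensors inactive. Its level was 692, 670 and 590 TPM in medium, 721, 681 and 680 TPM in stimulated cells, and 925, 1014 and 1107 TPM with TRAIL. Medium and stimulated libraries overlapped, whereas all 3 TRAIL-treated libraries lay above the other 6. The log2 fold change for stimulated against medium was 0.10 (95% interval -0.13 to 0.32, adjusted p = 0.422). For TRAIL-treated against stimulated cells it was 0.55 (0.32 to 0.77, adjusted p = 7.8e-04), and against medium 0.64 (0.41 to 0.87, adjusted p = 0.00145), both below the fold required for a call. Quantile normalization gave 0.40 and median-of-ratios scaling 0.83 for the difference from medium.

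*Hsp90b1* (ENSMUSG00000020048, chr10:86690209-86705509, minus strand) encodes GRP94, the ER member of the HSP90 family, whose clients include integrins and Toll-like receptors. Its level was 471, 425 and 437 TPM in medium, 694, 745 and 742 TPM in stimulated cells, and 370, 388 and 390 TPM with TRAIL. The 3 groups did not overlap, and stimulated cells stood highest. Differences of 0.71 (SE 0.08, adjusted p = 3.0e-05) for stimulated against medium and -0.93 (SE 0.08, adjusted p = 4.3e-06) for TRAIL-treated against stimulated cells stayed below the fold for a call, and TRAIL-treated cells differed from medium by -0.22 (adjusted p = 0.0723).

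*Calr* (ENSMUSG00000003814, chr8:84841850-84846934, minus strand) encodes calreticulin, a calcium-binding lectin chaperone for glycoproteins. Its level was 440, 544 and 457 TPM in medium, 819, 951 and 938 TPM in stimulated cells, and 492, 505 and 483 TPM with TRAIL. TRAIL-treated libraries lay inside the range of the medium libraries, and stimulated libraries lay above both. The log2 fold change was 0.91 (SE 0.11, adjusted p = 2.7e-05) for stimulated against medium, -0.87 (SE 0.11, adjusted p = 3.9e-05) for TRAIL-treated against stimulated, and 0.04 (interval -0.19 to 0.28) for TRAIL-treated against medium, with no call.

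*Dnajb9* (ENSMUSG00000014905, chr12:44205559-44210326, minus strand) encodes ERdj4, a J-domain co-chaperone that directs BiP to its substrates and to IRE1. Its level was 94.6, 86.5 and 72.5 TPM in medium, 18.5, 16.7 and 16.2 TPM in stimulated cells, and 140, 170 and 170 TPM with TRAIL. The groups did not overlap, and the order of stimulated below medium below TRAIL-treated cells held in every library. *Dnajb9* fell 4.70-fold upon stimulation (log2 fold change -2.23, SE 0.12, adjusted p = 1.1e-07) and was 8.87-fold higher with TRAIL than with stimulation alone (3.15, SE 0.12, adjusted p = 1.2e-08). Against medium the TRAIL-treated cells stood 0.92 higher (interval 0.64 to 1.19, adjusted p = 6.0e-04), just below the fold for a call, and after median-of-ratios scaling or quantile normalization this value was 1.10 or 1.03 and was called. Leaving out medium replicate 1 or TRAIL-treated replicate 1 also brought it to a call, at 1.00 and 1.01.

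*Sdf2l1* (ENSMUSG00000022769, chr16:17130138-17132383, minus strand) encodes a small ER protein that works with J-domain co-chaperones of BiP. Its level was 22.3, 25.5 and 24.6 TPM in medium, 106, 88.1 and 87.7 TPM in stimulated cells, and 23.3, 23.9 and 20.0 TPM with TRAIL. Stimulated libraries stood apart from the other 6, which overlapped. *Sdf2l1* rose 3.77-fold upon stimulation (1.92, SE 0.11, adjusted p = 2.0e-07) and was 4.06-fold lower with TRAIL than with stimulation alone (-2.02, SE 0.11, adjusted p = 1.5e-07). TRAIL-treated and medium cells differed by -0.10 (interval -0.36 to 0.15).

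*Manf* (ENSMUSG00000032575, chr9:106838312-106891979, minus strand) encodes a secreted factor that is retained in the ER by binding BiP. Its level was 52.6, 47.0 and 58.5 TPM in medium, 133, 119 and 118 TPM in stimulated cells, and 50.1, 55.2 and 60.9 TPM with TRAIL. As with *Sdf2l1*, stimulated libraries were high and the other 6 overlapped. *Manf* rose 2.32-fold upon stimulation (1.21, SE 0.11, adjusted p = 5.0e-06) and fell 2.21-fold with TRAIL against stimulation alone (-1.14, SE 0.11, adjusted p = 8.3e-06), a call that quantile normalization removed at -0.95. The annotated locus overlaps *Rbm15b* on the same strand (17.8 to 35.3 TPM) and *Dcaf1* on the opposite strand (25.3 to 62.4 TPM), and the strand setting of the counting was not given, so reads of these genes may be divided arbitrarily.

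*Pdia4* and *Pdia6* encode protein disulfide isomerases, which form and rearrange disulfide bonds, and they differed in direction upon stimulation. *Pdia6* (ENSMUSG00000020571, chr12:17266545-17284770, plus strand) was 150, 123 and 134 TPM in medium, 297, 269 and 281 TPM in stimulated cells, and 108, 110 and 100 TPM with TRAIL. *Pdia4* (ENSMUSG00000025823, chr6:47796141-47813430, minus strand) was 219, 183 and 202 TPM in medium, 149, 163 and 163 TPM in stimulated cells, and 116, 116 and 120 TPM with TRAIL. Neither gene had overlapping groups, and stimulated cells were the highest group for *Pdia6* and the middle group for *Pdia4*. *Pdia6* rose 2.08-fold upon stimulation (1.05, SE 0.10, adjusted p = 4.5e-06) and fell 2.65-fold with TRAIL against stimulation alone (-1.41, SE 0.10, adjusted p = 5.6e-07). The rise was close to the fold threshold and was not called after quantile normalization (0.92) or without medium replicate 2 (0.99). For *Pdia4* the log2 fold changes were -0.34 (adjusted p = 0.00676), -0.43 (adjusted p = 0.00191) and -0.77 (adjusted p = 2.7e-04) for stimulated against medium, TRAIL-treated against stimulated and TRAIL-treated against medium, none called.

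*Herpud1* (ENSMUSG00000031770, chr8:94386438-94395377, plus strand) encodes a membrane protein that organizes ER-associated degradation. Its level was 87.3, 112 and 102 TPM in medium, 133, 153 and 142 TPM in stimulated cells, and 125, 138 and 129 TPM with TRAIL. Stimulated and TRAIL-treated libraries overlapped and both groups lay above medium. Its log2 fold changes, none called, were 0.51 (adjusted p = 0.00191) for stimulated against medium, -0.13 (interval -0.37 to 0.11, adjusted p = 0.321) for TRAIL-treated against stimulated, and 0.38 (adjusted p = 0.0235) for TRAIL-treated against medium.

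*Xbp1* (ENSMUSG00000020484, chr11:5520659-5525893, plus strand) encodes the transcription factor that IRE1 activates by splicing, and gene-level TPM does not separate its spliced from its unspliced mRNA. Its level was 77.8, 81.1 and 76.9 TPM in medium, 309, 301 and 294 TPM in stimulated cells, and 102, 118 and 112 TPM with TRAIL. The groups did not overlap, and TRAIL-treated cells lay between the others. *Xbp1* rose 3.80-fold upon stimulation (1.93, SE 0.08, adjusted p = 2.1e-08) and fell 2.72-fold with TRAIL against stimulation alone (-1.44, SE 0.08, adjusted p = 1.9e-07). It remained 0.48 above medium in TRAIL-treated cells (interval 0.30 to 0.67, adjusted p = 0.00241), below the fold for a call.

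**Figure D2:**
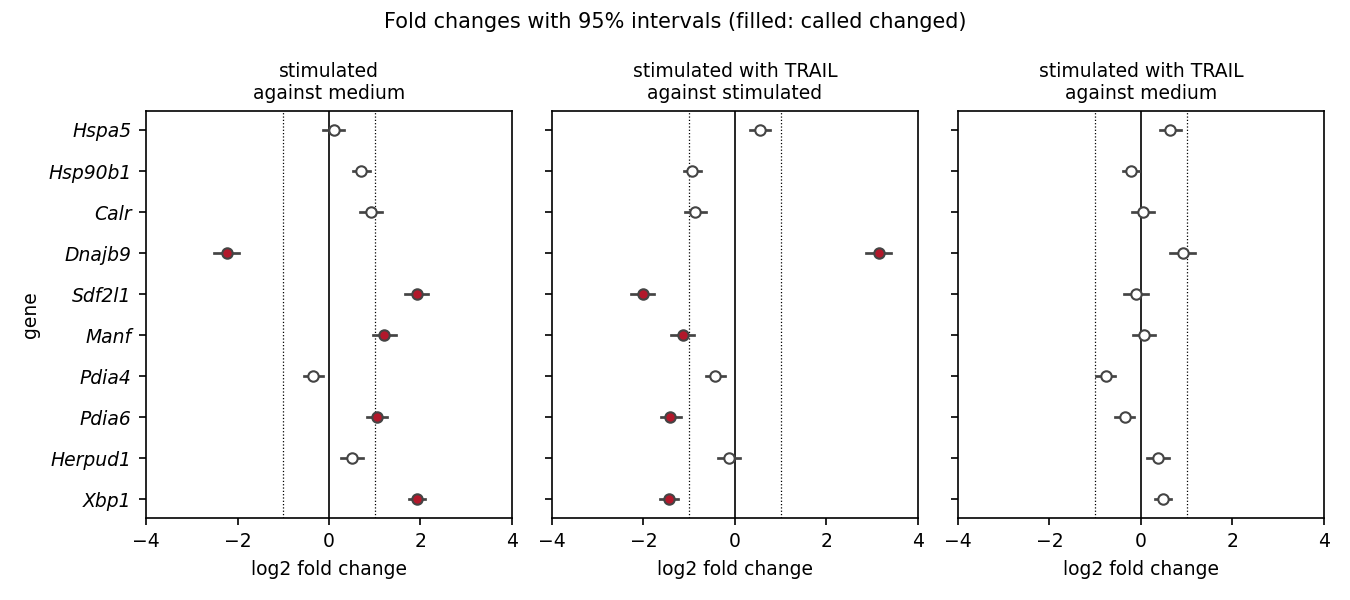
Log2 fold changes of the 10 genes with 95% intervals from limma in the 3 comparisons, with filled points for genes called changed and dotted lines at the fold threshold of 1. *Dnajb9* reads -2.23 for stimulated against medium and 3.15 for TRAIL-treated against stimulated cells, opposite to *Sdf2l1* at 1.92 and -2.02, and no point is filled for TRAIL-treated cells against medium.

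Of the 10 genes, 4 were called higher and 1 lower in stimulated cells against medium, where 12.4% of all tested genes were called higher and 19.5% lower. In TRAIL-treated against stimulated cells, 1 was called higher and 4 lower, beside 16.6% and 14.3% of all genes. In TRAIL-treated cells against medium none was called, beside 2.49% higher and 2.13% lower of all genes, and 7 of the 10 had an unadjusted p under 0.05 in limma, as did 44.0% of all genes. The adjusted p alone passed for 9, 9 and 6 of the 10 genes in these comparisons, against 68.7%, 67.1% and 32.6% of all genes. Libraries of the groups compared did not overlap for 9, 9 and 7 of the 10, against 72.6%, 70.4% and 50.6% of all genes, so these counts were not far from the background. The median log2 fold change of the 10 genes was 0.81, -0.90 and 0.06, where that of all tested genes was -0.15, 0.01 and -0.18. A list of 13 housekeeping genes had 5 called higher and 1 lower upon stimulation (median 0.15), 1 higher and 5 lower with TRAIL against stimulation alone (median -0.65), and 0 higher and 1 lower with TRAIL against medium (median -0.14).

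Ratios between these genes within a library do not depend on how libraries are scaled, and the pairs given here were chosen after their values were seen. The *Hspa5* to *Hsp90b1* ratio was 1.47, 1.58 and 1.35 in medium, 1.04, 0.914 and 0.917 in stimulated cells, and 2.50, 2.62 and 2.84 with TRAIL. BiP and GRP94 transcripts were thus nearly equal in stimulated cells, and BiP transcripts were in excess in TRAIL-treated cells. The *Dnajb9* to *Hspa5* ratio was 0.129 ± 0.00688 in medium, 0.0246 ± 0.000939 in stimulated cells and 0.158 ± 0.00909 with TRAIL (SD, n = 3). The *Dnajb9* to *Sdf2l1* ratio was 3.53 ± 0.661, 0.183 ± 0.00832 and 7.21 ± 1.25 in the same order. These BiP cofactors therefore exchanged places, with *Sdf2l1* the more abundant transcript in stimulated cells and *Dnajb9* in both other groups. The *Pdia4* to *Pdia6* ratio was 1.48 ± 0.0213 in medium, 0.562 ± 0.0551 in stimulated cells and 1.11 ± 0.0741 with TRAIL. *Manf* stood at 0.0818 ± 0.0153, 0.178 ± 0.00641 and 0.0545 ± 0.000438 of *Hspa5*.

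**Figure D3:**
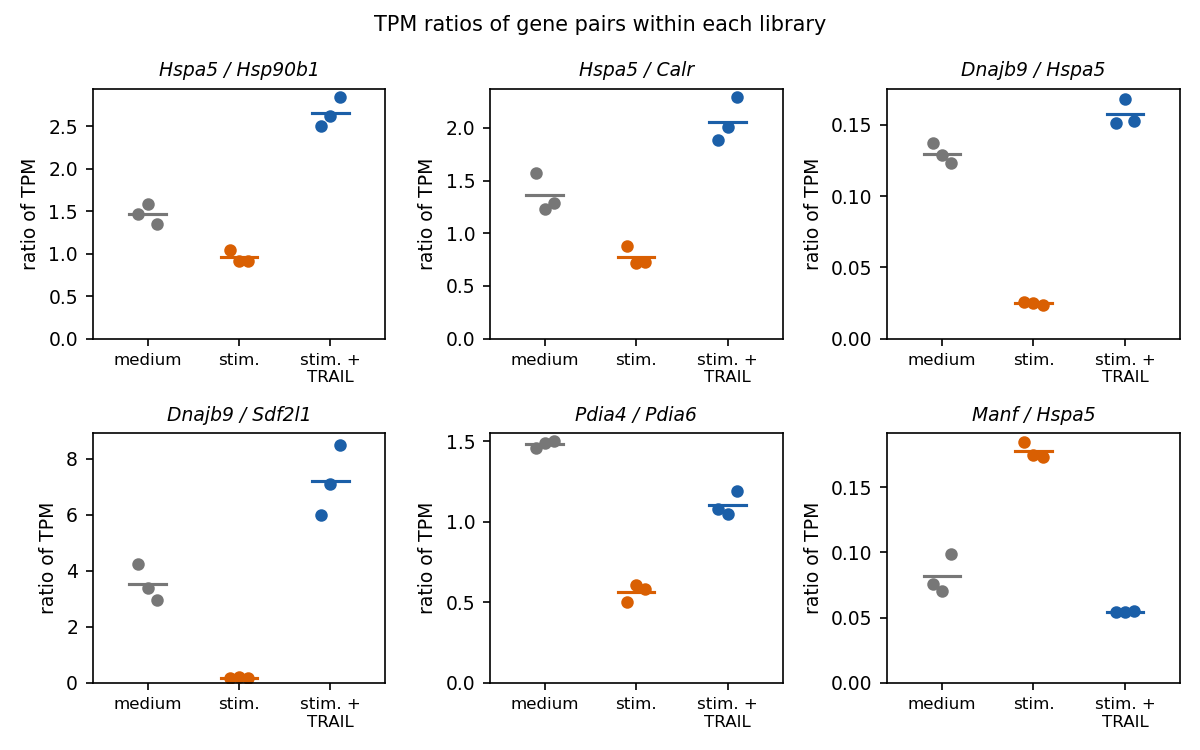
Ratio of TPM between 2 genes within each library for 6 pairs, with points for libraries and bars for group means. The *Hspa5* to *Hsp90b1* ratio is lowest in stimulated cells (mean 0.956) and highest with TRAIL (mean 2.65), and the *Dnajb9* to *Sdf2l1* ratio runs from 0.183 to 7.21 between the same groups.

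The likeness of patterns was measured as the root mean square difference between log2(TPM + 1) values, each centred on the gene's own mean over the 9 libraries. Among the 10 genes, *Hsp90b1* and *Calr* were the most alike (0.160), followed by *Pdia6* and *Manf* (0.212). *Xbp1* and *Sdf2l1* differed by 0.296. *Dnajb9* stood apart, at 1.169 from its nearest gene of the list, *Hspa5*, and at 2.242 from *Sdf2l1*. Outside the list, the genes closest to the mean pattern of the 10 were *Pmm1* (0.049), *Dbr1* (0.058), *Spryd4* (0.060), *Tmed9* (0.065) and *Utp15* (0.066), and those closest to *Hspa5* were *Ubb-ps* (0.092), *Gm6055* (0.095) and *Atp6ap2* (0.096). In all, 10446 genes whose highest group mean reached 10 TPM were ranked, and the distances are given as a description.

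The sensors upstream of these genes were measured next. *Eif2ak3*, which encodes PERK, was 35.1, 42.0 and 35.5 TPM in medium, 11.4, 15.5 and 15.9 TPM in stimulated cells, and 52.9, 57.3 and 48.2 TPM with TRAIL. Its groups did not overlap and followed the order seen for *Dnajb9*, with a fall upon stimulation (-1.35) and a rise with TRAIL against stimulation alone (1.83, adjusted p = 1.2e-06). *Ern1*, which encodes IRE1, averaged 8.21 TPM in medium, 7.62 TPM in stimulated cells and 6.80 TPM with TRAIL (-0.13 between the last groups, adjusted p = 0.566). *Atf6* averaged 23.2, 31.6 and 18.6 TPM, and its difference of -0.71 with TRAIL was not called (adjusted p = 0.00322). In a list of 6 genes, these sensors with *Atf6b* and the proteases that cut ATF6 (*Mbtps1* and *Mbtps2*), *Eif2ak3* was the only gene called in either comparison. This made 16.7% called lower upon stimulation and 16.7% called higher with TRAIL against stimulation alone. Of all tested genes, 19.5% and 16.6% were called in these directions, so the count was near the background.

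Genes of the PERK, ATF4 and CHOP branch split in direction, and the signal behind their changes was not tested. Of 11, 8 were called higher and 1 lower in stimulated cells against medium, 1 was called higher and 5 lower in TRAIL-treated against stimulated cells, and 4 were called higher in TRAIL-treated cells against medium. The shares of all tested genes called higher and lower were 12.4% and 19.5%, 16.6% and 14.3%, and 2.49% and 2.13% in these comparisons. *Atf4* averaged 370, 665 and 415 TPM, with a difference of -0.68 with TRAIL that was not called. Its targets *Chac1*, a glutathione-degrading enzyme, and *Trib3*, a pseudokinase that restrains ATF4, rose from 0.414 and 2.63 TPM in medium to 35.5 and 78.7 TPM in stimulated cells and were 0.622 and 5.01 TPM with TRAIL. *Nupr1*, a stress-induced chromatin protein, averaged 2.40, 20.6 and 1.73 TPM and fell with TRAIL (-2.99). *Ppp1r15a*, which encodes GADD34, the phosphatase subunit that restores translation after PERK signaling, ran the other way at 468, 80.0 and 773 TPM (-2.53 upon stimulation, 3.26 with TRAIL, adjusted p = 6.5e-09). *Ddit3*, which encodes the transcription factor CHOP, averaged 34.7, 70.9 and 97.4 TPM and was called higher in both stimulated (1.01) and TRAIL-treated cells (1.46) against medium. The call in stimulated cells ended with a pseudocount of 5 (0.93) and without medium replicate 2 or stimulated replicate 1 (0.99 each). The other genes of this branch called higher with TRAIL against medium were *Atf3* (4.86), *Cebpb* (1.53) and *Sesn2* (1.04, or 0.76 and not called with a pseudocount of 5). All of these were also called higher upon stimulation without TRAIL (4.71, 1.56 and 3.24). *Atf3* averaged 2.07, 79.1 and 88.6 TPM and *Cebpb* 47.0, 141 and 138 TPM in the same order of groups, and *Sesn2*, at 6.57, 70.8 and 14.5 TPM, fell with TRAIL against stimulation alone (-2.20).

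Other ER chaperones and cofactors included 19 genes, of which 4 were called higher and 1 lower upon stimulation (21.1% and 5.26%). With TRAIL against stimulation alone, 0 were called higher and 6 lower (0% and 31.6%). The shares of all tested genes called higher and lower were 12.4% and 19.5%, and 16.6% and 14.3%, in these comparisons. *Hyou1*, a nucleotide exchange factor for BiP, averaged 58.1 TPM in medium, 122 TPM in stimulated cells and 47.6 TPM with TRAIL. *Creld2*, a gene induced by ER stress, averaged 22.3, 65.5 and 20.0 TPM. Both rose upon stimulation (1.06 and 1.52) and fell with TRAIL (-1.35 and -1.66), although the rise of *Hyou1* was not called without stimulated replicate 3 (0.99, with 2 of the 19 genes then called higher), and the prolyl isomerase gene *Fkbp2* (-1.58) and *Cnpy2* (-1.55) also fell with TRAIL. Among 14 genes of disulfide formation, 2 were called higher and 1 lower upon stimulation (14.3% and 7.14%). With TRAIL against stimulation alone, 1 was called higher and 1 lower (7.14% each). The called oxidases of the isomerases took opposite courses. *Ero1l* averaged 23.8, 146 and 21.8 TPM (2.56 upon stimulation, -2.69 with TRAIL), whereas its paralog *Ero1lb* averaged 39.7, 11.5 and 40.0 TPM (-1.70 and 1.70).

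Among 23 genes of ER-associated degradation, 1 was called higher and 1 lower upon stimulation, and 1 higher and 2 lower with TRAIL. *Vcp*, the ATPase that extracts proteins from the ER membrane, averaged 130, 334 and 123 TPM, and *Nploc4*, its cofactor, fell by 1.14 with TRAIL. *Derl3*, also a marker of plasma cells, averaged 12.1, 2.25 and 7.51 TPM. Of 24 genes of the translocon and signal peptide processing, 4 were called lower with TRAIL: *Srp19* (-1.37), *Spcs3* (-1.36), *Ssr2* (-1.19) and *Sec61g* (-1.02). The call for *Ssr2* ended under quantile normalization (-0.96), and that for *Sec61g* with a pseudocount of 5 (-0.92), after median-of-ratios scaling (-0.99) or quantile normalization (-0.92), and without stimulated replicate 1 (-0.84), TRAIL-treated replicate 1 (-0.96) or TRAIL-treated replicate 2 (-0.98). Of 17 genes of N-glycosylation, 7 were called lower with TRAIL, among them the glucosidase gene *Mogs*, at 123 TPM in stimulated and 30.2 TPM in TRAIL-treated cells, and the oligosaccharyltransferase gene *Rpn1*, at 150 and 54.1 TPM. The glucosidase subunit gene *Prkcsh* and *Gfpt1*, whose enzyme opens the hexosamine pathway, each fell by 1.25. Over all 7 ER lists (114 genes besides the 10), 18 were called higher and 5 lower upon stimulation, 4 higher and 25 lower with TRAIL against stimulation alone, and 4 higher and 0 lower with TRAIL against medium. These were 15.8% and 4.39%, 3.51% and 21.9%, and 3.51% and 0%, where the shares of all tested genes called higher and lower were 12.4% and 19.5%, 16.6% and 14.3%, and 2.49% and 2.13%. The median log2 fold changes of the 114 genes were 0.29, -0.45 and -0.19.

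The cytosol has its own chaperones, induced by HSF1 rather than by the ER sensors, and 16 of them were set beside the 10 ER genes. Upon stimulation, 8 of these 16 were called higher and 2 lower (median 0.84, beside 0.81 for the 10 ER genes), where 12.4% and 19.5% of all genes were. With TRAIL against stimulation alone 6 were called higher and 5 lower (median 0.11, beside -0.90), where 16.6% and 14.3% of all genes were. In TRAIL-treated cells against medium, 8 were called higher and 0 lower (median 1.08), where none of the 10 ER genes (median 0.06) and 2.49% of all genes were called higher. The absence of calls among the 10 ER genes was near this background. The difference between the lists was not tested. *Hspa1b* averaged 335, 1.93 and 1545 TPM and *Hspa1a* 186, 1.31 and 1056 TPM in the same order of groups, and as near-identical copies they may share reads. This order of groups was that of *Dnajb9*, with a much wider range. *Bag3*, a co-chaperone of HSP70, averaged 7.46, 4.83 and 28.8 TPM and was higher with TRAIL than in stimulated cells (2.37) and in medium (1.83). *Stip1*, a co-chaperone that links HSP70 and HSP90, averaged 103, 459 and 105 TPM, and its medium and TRAIL-treated libraries overlapped.

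**Figure D4:**
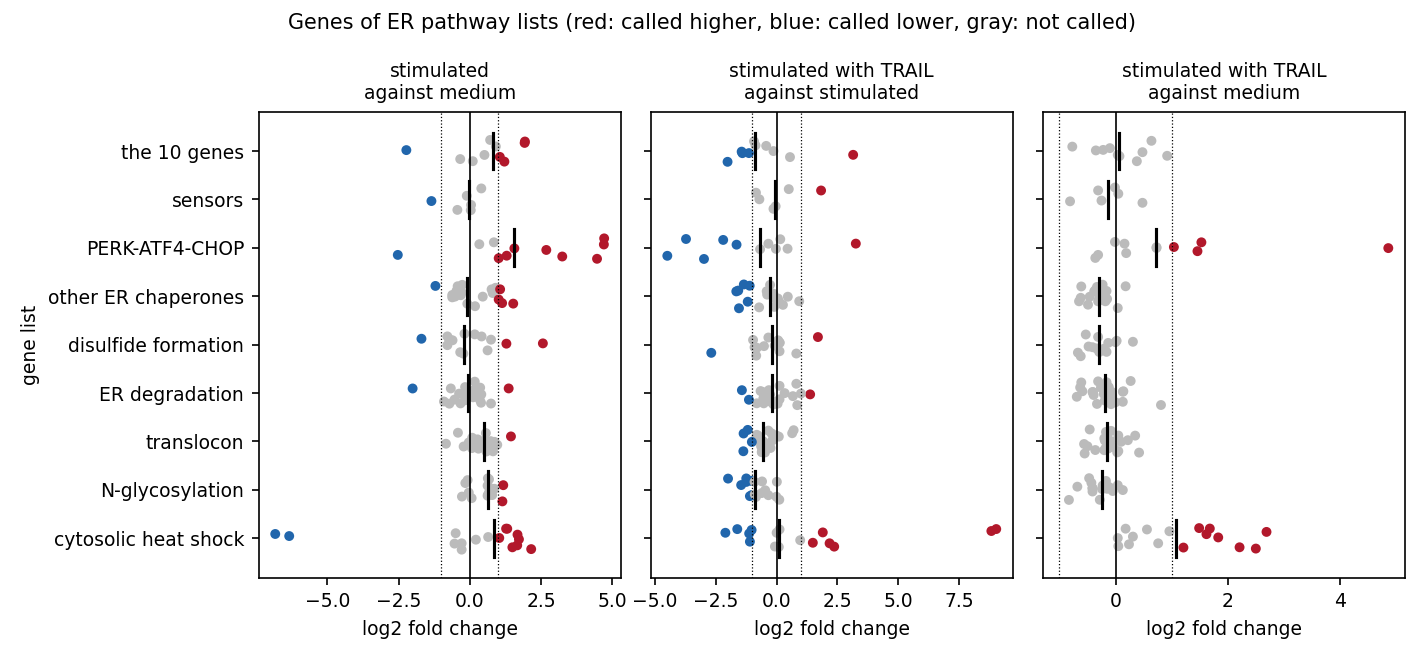
Log2 fold changes of single genes (points) in the 10 ER genes, 7 further ER lists and the cytosolic heat shock list, with list medians as bars, genes called higher in red and called lower in blue. For TRAIL-treated cells against medium, called genes appear in the PERK-ATF4-CHOP list (4) and the cytosolic list (8), and none among the 10 ER genes. Of all tested genes, 2.49% were called higher and 2.13% lower in this comparison.

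Markers of T cells and of other spleen cells were measured in the same libraries. The 14 T cell markers summed to 6494, 5616 and 6586 TPM on average in medium, stimulated and TRAIL-treated cells, with none under 1 TPM. The 12 B cell markers summed to 2706 to 2853 TPM in medium, 205 to 230 TPM in stimulated cells and 1109 to 1271 TPM with TRAIL, and all 12 were called lower upon stimulation and 11 higher with TRAIL against stimulation alone. The 16 myeloid markers summed to 3209 to 3449, 292 to 312 and 2468 to 2855 TPM, with all 16 called lower and then all 16 higher, and the 8 erythroid markers to a mean of 2420, 31.2 and 651 TPM. Other lists were mixed. The 13 plasma cell markers summed to 2258 to 2706, 867 to 1114 and 2005 to 2226 TPM, with 2 called higher and 8 lower upon stimulation, then 7 higher and 3 lower with TRAIL. *Irf4*, which activated T cells also express, held 734 TPM of the stimulated sum, and the other 12 summed to a mean of 2388, 298 and 1913 TPM. The 10 dendritic cell markers summed to a mean of 138, 214 and 109 TPM, of which *Bst2* alone held 65.3, 172 and 61.7 TPM, and the other 9 summed to 72.4, 42.5 and 47.6 TPM. Of the 10, 6 were called lower and 2 higher upon stimulation, and 4 higher and 3 lower with TRAIL. The 10 markers of CD8 T cells and NK cells summed to a mean of 490, 202 and 246 TPM, with 6 called lower upon stimulation, then 4 higher and 2 lower with TRAIL. No B cell marker averaged under 1 TPM in any group, whereas 2 myeloid, 2 plasma cell, 5 dendritic cell and 4 erythroid markers did so in stimulated cells, so markers of other cells were present in the libraries labelled as CD4+ T cells. *Dnajb9* and *Eif2ak3* moved in the same direction as the summed markers of each of these other cell types, *Bst2* aside, between stimulated cells and both other groups. *Ppp1r15a*, *Ero1lb*, *Hspa1a* and *Hspa1b* did so too, and the part of other cells in the levels of these genes was not tested. *Sdf2l1*, *Xbp1*, *Manf* and *Pdia6* moved in the opposite direction. Between medium and TRAIL-treated cells, *Dnajb9* stood at 84.5 and 160 TPM and *Hspa5* at 651 and 1015 TPM. The mean sums of B cell markers were 2785 and 1202 TPM. Those of myeloid markers were 3328 and 2707 TPM, and those of plasma cell markers 2445 and 2097 TPM. Of the 13 plasma cell markers, 1 was called higher and 1 lower in TRAIL-treated cells against medium. *Igha*, the highest of them, stood at 941 and 946 TPM. Here too the part of other cells was not tested.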

How the data were processed

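Per the labels and the study's methods, the authors trimmed reads with Trimmomatic 0.36, aligned them with HISAT2 2.1.0, processed them with SAMtools 1.2 and StringTie 2.1.2, and normalized feature counts with DESeq2. The processing notes name the human build GRCh38, whereas the study's methods name mouse GRCm38. Identifiers and loci in the table are those of mouse GRCm38, and all 10 genes lie at the loci of GENCODE M21. The authors deposited TPM values, which keep no totals, so depth and counting error are unknown. Because TPM values are not counts, groups were compared with limma.

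All later values were computed from the TPM of all 9 libraries, grouped by their labels. The 15536 genes that reached 1 TPM in 3 or more libraries entered a single limma-trend fit (limma 3.58.1, R 4.3.3) of log2(TPM + 1), a scale that understates the change of low genes. Adjusted p-values follow Benjamini and Hochberg over these genes, with thresholds of 0.05 for the adjusted p and 1 for the size of the log2 fold change. The smallest two-sided p of an exact permutation test is 0.1 with 3 libraries a group. Sums, ratios, motifs and plots were computed in Python 3.11.15 (pandas 2.3.3, matplotlib 3.10.9).

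The text names all 10 genes and, from each list, up to 4 called genes with the largest change between TRAIL-treated and stimulated cells and a group mean of 10 TPM or more. It also names the sensors *Ern1*, *Eif2ak3* and *Atf6*, the factors *Atf4* and *Ddit3* whatever their values, and the genes of nearest pattern (5 for the mean of the 10, 3 for *Hspa5*). *Atf3*, *Cebpb* and *Sesn2* were added after their values were seen. Of 2 rows named *Ddit3*, the abundant one was used. The genes and lists were chosen with earlier results of these data known. The alternatives varied the pseudocount, filter, scaling, variance trend, libraries in the fit, replicate block and fold threshold, and left out each library in turn. Leaving *Irf4* and *Bst2* out of the marker sums was chosen after seeing the data.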

Additional observations from a re-analysis of the deposited data

How the results depend on the processing

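Counts of the 10 genes and of the ER and cytosolic lists, and the log2 fold changes in the text, were recomputed under 20 alternatives, and the counts of marker and housekeeping lists were not. Without the fold threshold, 7 of the 10 genes were called higher and 2 lower for stimulated cells against medium, 2 and 7 for TRAIL-treated against stimulated cells, and 4 and 2 for TRAIL-treated cells against medium. Of the 114 other ER genes, 55 and 23, 17 and 64, and 9 and 32 were then called, and 6 cytosolic genes were lower upon stimulation. Quantile normalization left 3 cytosolic genes lower with TRAIL against stimulation alone. Among single ER lists, with the fold threshold kept, counts outside 1.5 times the original differed by 1 gene with few exceptions. The least stable was the count of ER-associated degradation genes higher with TRAIL against stimulation alone. It stayed within 1.5 times the original in 10 of the 20 alternatives and was 1 to 2 leaving out each library in turn. Other ER chaperones higher upon stimulation numbered 2 without stimulated replicate 3. Quantile normalization left 4 N-glycosylation and 2 translocon genes lower with TRAIL, and translocon genes higher upon stimulation numbered 3 after median-of-ratios scaling or without medium replicate 1. Against medium, median-of-ratios scaling and quantile normalization each gave 1 gene higher in TRAIL-treated cells (*Dnajb9*), and leaving out each library in turn gave 0 to 1. Signs turned only among uncalled values, including *Ern1* with TRAIL against stimulation alone, from -0.33 to 0.01 leaving out each library. Under quantile normalization these were *Hspa5* for stimulated against medium (-0.17), *Herpud1* for TRAIL-treated against stimulated (0.09) and, for TRAIL-treated against medium, *Calr* (-0.04) and *Sdf2l1* (0.07, also 0.07 after median-of-ratios scaling). Leaving out each library in turn gave -0.02 (without medium replicate 1) to 0.14 for *Calr* and -0.01 (without medium replicate 2) to 0.15 for *Manf* in that comparison. *Calr* was called higher upon stimulation after median-of-ratios scaling (1.06) and without medium replicate 2 (1.00). Among uncalled values that kept their sign, median-of-ratios scaling brought *Pdia4* to -0.19 for stimulated against medium and *Hsp90b1* to -0.03 and *Pdia6* to -0.17 for TRAIL-treated against medium, and quantile normalization brought *Pdia4* to -0.21 for TRAIL-treated against stimulated. The cause of these changes was not tested. Median-of-ratios scaling and quantile normalization moved the median of all genes by 0.136 and 0.190 for stimulated against medium, by 0.026 and -0.061 for TRAIL-treated against stimulated and by 0.162 and 0.139 for TRAIL-treated against medium, and the share of higher among all calls from 38.8% to 47.2% and 52.1%, from 53.8% to 55.6% and 48.6%, and from 53.9% to 73.8% and 70.6%. Deviations from group means correlated from -0.306 to 0.295 between same-numbered libraries, over 0.1 in 3 of 9 pairs. Between libraries of different numbers they correlated from -0.379 to 0.289. With 3 libraries a group, these values cannot show whether replicate numbers pair the libraries. With a replicate block 4 of the 10 genes were called higher and 1 lower, 1 higher and 4 lower, and 0 either way, as without it. Depth is unknown for TPM, and the number of libraries limits the precision.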
